A study of Mus musculus with 3 samples.

Results

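Macrophages without a working Angptl4 gene were given a triglyceride emulsion together with recombinant ANGPTL4 protein, and their transcripts were compared with those of cells given PBS, the buffer control. The comparison used 2 of the 3 arrays of the series and took, for each gene, the deposited log2 level on the array with intralipid plus ANGPTL4 minus that on the PBS array. Of 19938 genes with a probe set of their own, 9960 reached an expression floor on at least 1 of these arrays and were compared. The floor was the median level of all probe sets with 1 gene symbol on the same array, a log2 level of 5.00 with PBS, 4.99 with intralipid plus ANGPTL4 and 4.98 with intralipid alone. The levels on the array with intralipid alone are given beside the others for orientation.

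The donors of every culture were male Angptl4-/- mice of the C57Bl/6J strain, whose age is not given in the sources used here. Cells were washed from the peritoneal cavity 3 days after an injection of 4% thioglycollate, an irritant that recruits macrophages, and adherent cells were cultured for 2 days. The PBS cultures received buffer and no lipid. The others received intralipid, an emulsion of triglyceride droplets, at 0.5 mM triglyceride for 6 h, in the group with ANGPTL4 after 1.5 h with 2.5 µg/mL of the recombinant mouse protein. Each array carried RNA pooled from 3 samples, and each group had 1 array. The comparison therefore has no estimate of the spread between cultures, no test was run, and "higher" and "lower" describe these arrays. The cultures differed both in lipid and in added protein, no array with ANGPTL4 but no lipid was analysed here, and the contributions of the lipid and the protein cannot be told apart from this pair. The sources do not say whether the PBS cultures went through a mock pre-incubation.

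ANGPTL4 is a secreted protein that inhibits lipoprotein lipase, the enzyme by which macrophages and other cells release fatty acids from triglyceride-rich particles. Macrophages store such fatty acids in lipid droplets or oxidise them. They also carry Toll-like receptors and receptors for tumour necrosis factor, which act through NF-kB, a family of dimeric transcription factors held in the cytoplasm by inhibitor proteins. Genes of the inhibitors are themselves NF-kB targets and form a feedback loop. Among other classical targets are chemokines, cytokines, adhesion molecules and some enzymes.

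Macrophage markers were high on all arrays, with 14 of 14 measured members at or above the floor and Lyz2, Cd68, C1qb and C1qc leading. The median log2 level of these markers was 10.44 with PBS and 10.64 with intralipid plus ANGPTL4. Of the B cell (8 measured), T and NK cell (10), mast cell (8) and erythroid (3) markers, 0 reached the floor on any array, and of 7 dendritic cell markers 0 did so on either array compared. Of 10 neutrophil markers, 2 were at or above the floor, of 4 monocyte markers 2, and of 5 eosinophil markers 1, Siglecf. Among the 8 fibroblast markers, 6 were measured at or above the floor, and Col1a1, Col1a2, Col3a1, Dcn and Postn had the same level on both arrays. Col1a2 at a log2 level of 9.79, Col1a1 at 9.33 and Dcn at 8.51 were well above the floor, and Postn at 5.08 was near it. Of 6 mesothelial markers, 2 reached the floor, their summed linear level over all 6 was 163 with PBS and 136 with intralipid plus ANGPTL4, and Krt8 was 1.65-fold lower. The summed level of 9 markers of resident large peritoneal macrophages was 957 with PBS and 1393 with intralipid plus ANGPTL4, with F10 1.68-fold higher. Without F10, the other 8 summed to 356 and 382, and among them Gata6 was 1.04-fold and Icam2 1.23-fold lower. The part of such cells in the differences below was not tested. The deleted gene, Angptl4, had a log2 level of 4.92 on all arrays, below the floor. It is not known if its probes cover the deletion, and no wild-type array was analysed here, so the genotype cannot be checked from it. A transcript level on these arrays reflects both the number of cells of a type and the RNA per cell, which cannot be told apart.

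The differences were lopsided. With intralipid plus ANGPTL4, 84 of the 9960 genes were at least 2-fold higher than with PBS (0.843%) and 4 were at least 2-fold lower (0.0402%). At 1.5-fold, 236 were higher (2.37%) and 53 lower (0.532%). Of all genes compared, 35.5% lay above 0, 24.5% below and 40.1% were equal. These shares are the background for every list count below. Of the higher genes, 73 lay between 2-fold and 4-fold, 11 reached 4-fold and 4 of those 8-fold. No lower gene reached 4-fold. The middle of the distribution was narrow, with a median log2 difference of 0.00 and a robust SD of 0.10 over genes, and 3990 genes had exactly the same value on both arrays. This spread is over genes, not over cultures. Just inside the 2-fold limit lay Irf1, Lmo4 and Birc3, with log2 differences of 1.00, 1.00 and 1.01, and just outside it Ifih1 and Rab20, with 0.998 and 0.997. On the PBS array, 9 of the 84 higher genes were below the floor, so their folds rest on a level near background. Measured against the floor instead, 3 of them stayed at least 2-fold higher and 6 did not, which would leave 78.

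**Figure D1:**
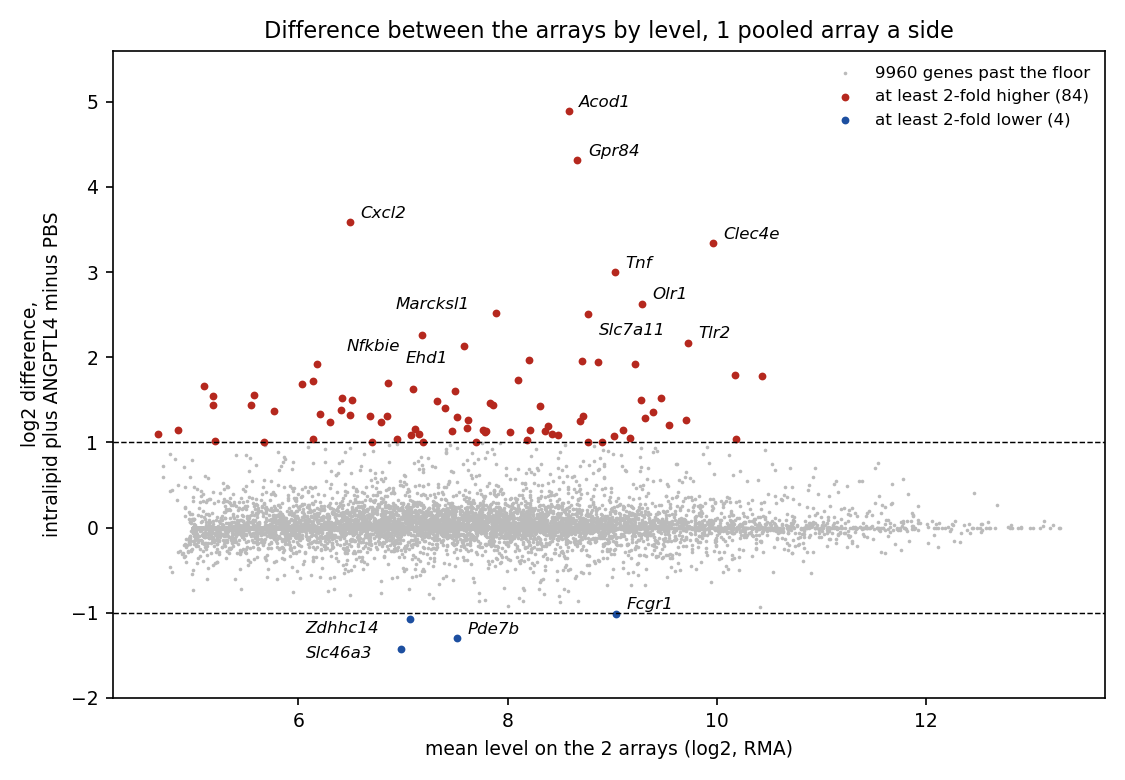
Log2 difference between the array with intralipid plus ANGPTL4 and the PBS array (vertical axis) against the mean log2 level on both (horizontal axis), with 1 point per gene past the floor and dashed lines at 2-fold. The 84 genes at least 2-fold higher are red, the 4 at least 2-fold lower are blue, and the 2 points farthest from 0 are Acod1 and Gpr84.

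The largest difference was that of Acod1, which encodes the mitochondrial enzyme that makes itaconate from the citric acid cycle intermediate cis-aconitate. Its log2 level was 6.14 on the PBS array, 6.55 on that with lipid alone and 11.03 on that with intralipid plus ANGPTL4, which was 29.6-fold higher than PBS. Only the last of these arrays was high. The other genes of the itaconate and citric acid cycle list stayed close to their PBS level: Slc25a10, a mitochondrial dicarboxylate carrier, was 1.24-fold higher, and Idh3g, a subunit of isocitrate dehydrogenase, was 1.16-fold lower. Of the 25 list members past the floor, 1 was at least 2-fold higher and 0 were lower, with a median log2 difference of -0.01 and, through Acod1, a mean of 0.18.

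Gpr84, a G protein-coupled receptor for medium-chain fatty acids that is induced in activated macrophages, came second. Its log2 level was 6.51 with PBS, 5.11 with lipid alone and 10.83 with intralipid plus ANGPTL4, 19.9-fold above PBS. The lipid array was the lowest and lay close to the floor. Among 12 genes for receptors of fatty acids and other metabolites past the floor, Gpr84 was the single one at least 2-fold higher. Ptgir, the prostacyclin receptor, was 1.73-fold higher, Gpr132, a receptor for lysolipids and oxidised fatty acids, 1.60-fold and Ptger4, a receptor for prostaglandin E2, 1.59-fold. Gpr183, the oxysterol receptor, was 1.54-fold lower. The median log2 difference of the list was 0.10.

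Clec4e, which encodes the C-type lectin Mincle, had a log2 level of 8.29 with PBS, 10.09 with lipid alone and 11.63 with intralipid plus ANGPTL4, 10.1-fold above PBS. Here the lipid array lay between the others. Olr1, the scavenger receptor for oxidised low-density lipoprotein, showed the same order, with 7.97, 9.61 and 10.60, and was 6.19-fold higher than with PBS. Slc7a11, the cystine transporter that supplies glutathione synthesis, likewise went from 7.52 through 9.63 to 10.03 and was 5.69-fold higher. Marcksl1, a substrate of protein kinase C at the plasma membrane, was 5.74-fold higher, at 6.63, 6.30 and 9.15, and Ehd1, a protein of endosomal recycling, was 4.37-fold higher, at 6.52, 7.55 and 8.64. For Marcksl1 the PBS and lipid arrays were close together and the array with ANGPTL4 stood apart. Further down the order, Gsap was 3.85-fold higher, at 7.90, 8.33 and 9.84, and Tarm1, an activating receptor of myeloid cells, was 3.80-fold higher, at 5.22, 4.91 and 7.15.

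**Figure D2:**
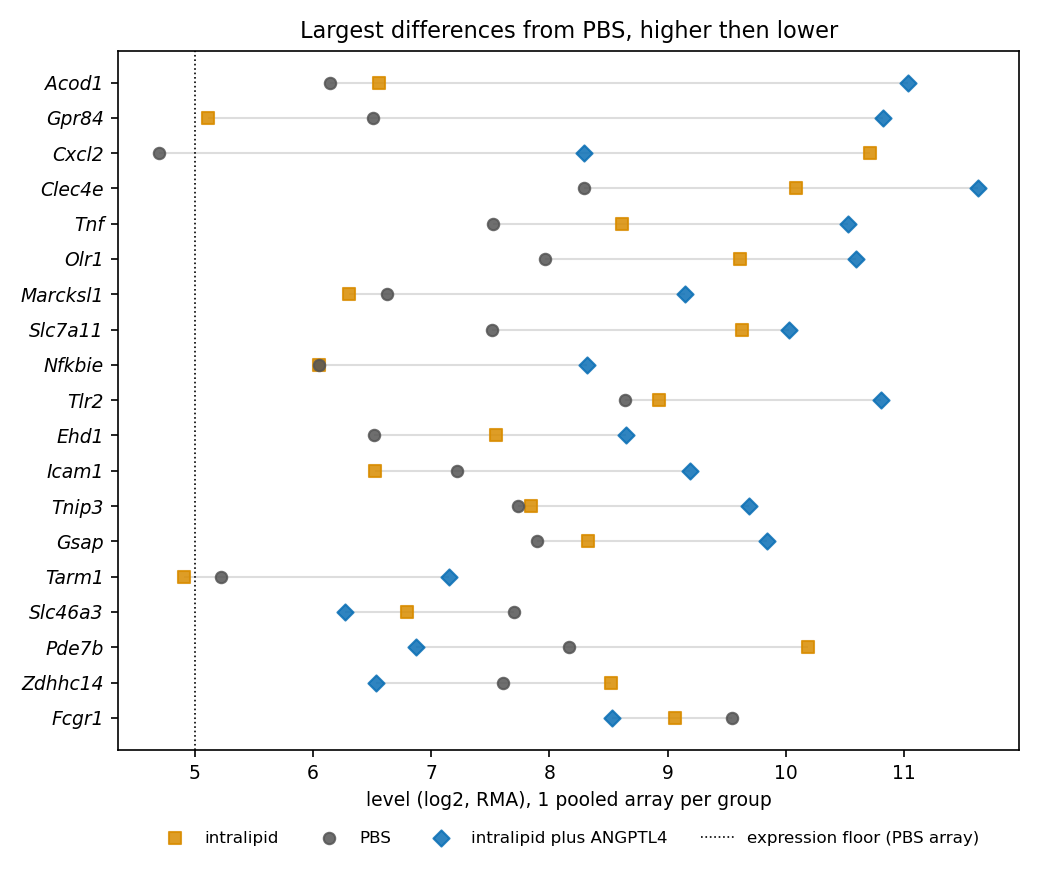
Log2 levels (horizontal axis) of the 15 genes with the largest difference upward and the 4 genes at least 2-fold lower than with PBS, with 1 symbol per array and a dotted line at the floor of the PBS array. Acod1, Gpr84 and Nfkbie are high on the array with intralipid plus ANGPTL4 only, whereas Cxcl2 is highest with intralipid alone and Pde7b lowest with intralipid plus ANGPTL4.

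The NF-kB genes were the list with the largest median difference of the 31 gene lists, which were drawn up with results of these data known. All 28 measured members of the 31 listed symbols passed the floor, 10 of them were at least 2-fold higher and 0 were lower, beside 0.843% and 0.0402% of all genes. Above 0 lay 27 members, 1 was equal on both arrays, and the median log2 difference was 0.54, beside 0.00 over all genes. Genes of inhibitors led the list, but other inhibitors lay nearer PBS, with Nfkbib 1.34-fold, Tnip2 1.32-fold and Cyld 1.10-fold higher. Of the subunit genes measured, Nfkb2 was 2.28-fold and Relb 2.12-fold higher, Rel 1.15-fold and Rela 1.13-fold. Nfkbie, which encodes IkB-epsilon, had a log2 level of 6.05 with PBS, 6.05 with lipid alone and 8.32 with intralipid plus ANGPTL4, a 4.81-fold difference from PBS. Nfkbia, the gene of IkB-alpha, stood at 8.26, 8.93 and 10.18, 3.77-fold above PBS. Tnip3, which binds the ubiquitin-editing enzyme A20, stood at 7.73, 7.84 and 9.69, 3.89-fold above PBS. In Nfkbie and Tnip3 the PBS and lipid arrays were near each other, in Nfkbia the lipid array lay somewhat above PBS, and in each the array with ANGPTL4 was the highest.

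Some signalling adaptors and kinases of the NF-kB list were at least 2-fold higher and others lay near PBS. Traf1, an adaptor of tumour necrosis factor receptors, was 2.58-fold higher, at 5.09, 5.71 and 6.45. Nfkbiz, a nuclear IkB protein that acts as a co-activator, was 2.52-fold higher, at 5.54, 6.69 and 6.87, and in this gene the lipid array was nearly as high as the one with ANGPTL4. Ikbke, an IkB-kinase family member, was 2.44-fold higher, at 8.67, 8.40 and 9.96. By contrast, the kinase gene Ikbkb was 1.04-fold and the adaptor gene Traf6 1.16-fold above PBS, and Map3k14, the NF-kB-inducing kinase, was equal on both arrays. Of 26 negative regulators of Toll-like receptor signalling, 23 passed the floor and 3 were at least 2-fold higher. These were Nfkbia, Tnip3 and Tnip1, another A20-binding protein (2.20-fold, at 7.22, 7.23 and 8.36), all of which are on the NF-kB list too. Socs3, a suppressor of cytokine signalling, was 1.91-fold higher, Zc3h12a, an RNase that degrades cytokine messages, 1.83-fold, and Tnfaip3, which encodes A20 itself, 1.77-fold. Tnfaip3 stood at 8.85, 10.38 and 9.67, and in this gene the lipid array was the highest. The median log2 difference of the negative regulators was 0.29, and 0.07 over all 26 members, those below the floor included.

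**Figure D3:**
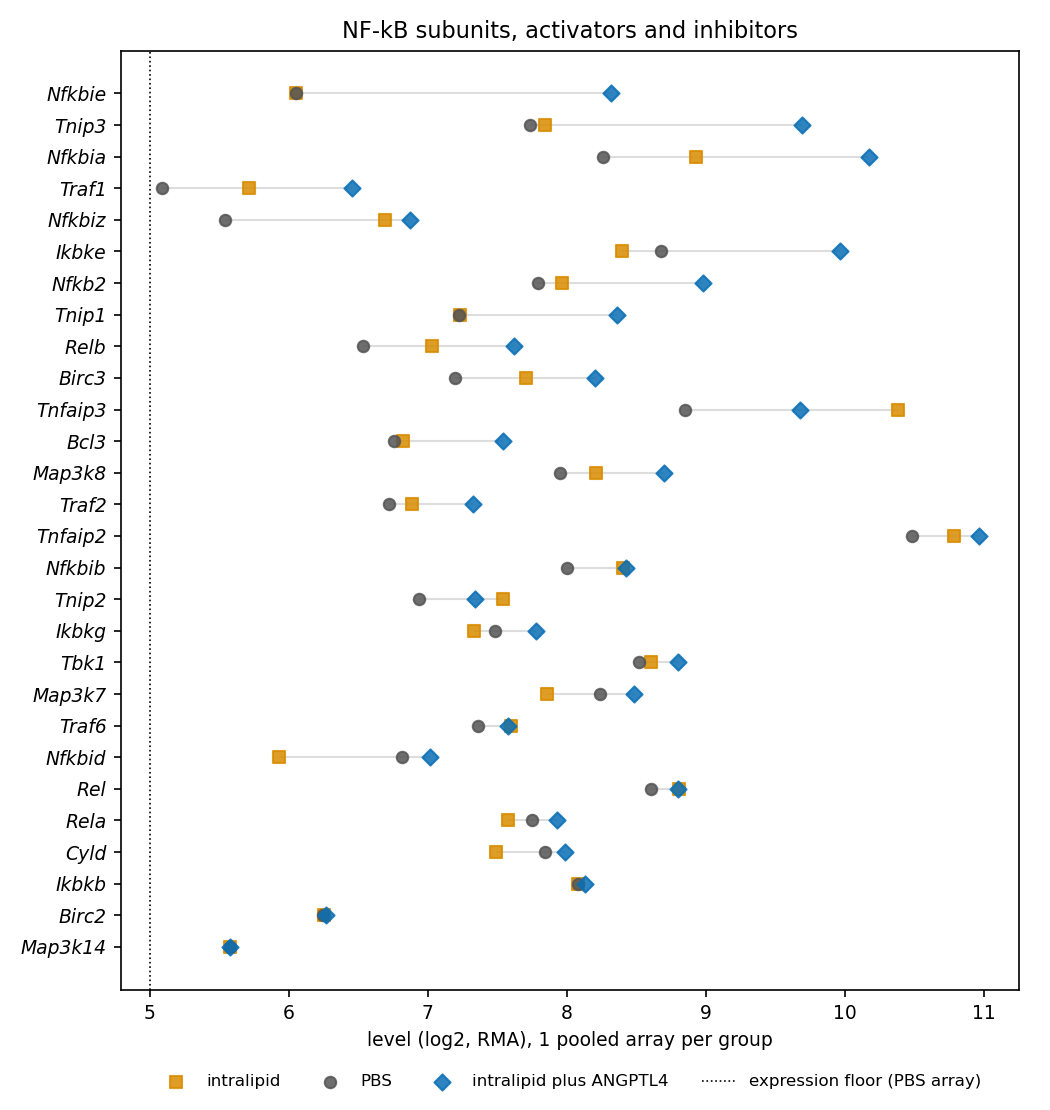
Log2 levels (horizontal axis) of the 28 measured genes of NF-kB subunits, activators and inhibitors, ordered by their difference from PBS, with 1 symbol per array and a dotted line at the floor of the PBS array. The array with intralipid plus ANGPTL4 lies to the right of the PBS array in 27 genes, farthest in Nfkbie, Tnip3 and Nfkbia.

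Since the NF-kB list had the largest median, the 250 bases upstream of gene start sites in RefSeq (GRCm38.p6) were searched for the kB consensus, the motif that NF-kB dimers bind. The windows of Acod1, the gene with the largest difference, and of the 4 genes Cxcl2, Nfkbia, Nfkbie and Tnip3 are printed to show what was searched, 5′ to 3′ on the strand of the gene, with kB matches on either strand in capitals.
Acod1 (chr14:103046762-103047011, plus strand): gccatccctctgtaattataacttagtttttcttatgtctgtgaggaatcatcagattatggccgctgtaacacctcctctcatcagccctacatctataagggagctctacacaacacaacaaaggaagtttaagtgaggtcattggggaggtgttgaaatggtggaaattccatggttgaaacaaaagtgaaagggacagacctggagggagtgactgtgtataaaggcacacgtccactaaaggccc
Cxcl2 (chr5:90903649-90903898, plus strand): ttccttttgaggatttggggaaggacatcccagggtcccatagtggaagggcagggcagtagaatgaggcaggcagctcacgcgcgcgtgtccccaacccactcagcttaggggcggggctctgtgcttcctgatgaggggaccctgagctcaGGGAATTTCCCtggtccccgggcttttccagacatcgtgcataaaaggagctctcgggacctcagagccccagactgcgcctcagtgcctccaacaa
Nfkbia (chr12:55492648-55492897, minus strand): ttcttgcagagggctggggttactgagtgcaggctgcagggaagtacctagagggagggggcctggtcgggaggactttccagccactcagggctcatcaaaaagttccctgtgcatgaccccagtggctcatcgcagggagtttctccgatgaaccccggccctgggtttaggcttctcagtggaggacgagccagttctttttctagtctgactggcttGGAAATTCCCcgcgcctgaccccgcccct
Nfkbie (chr17:45555450-45555699, plus strand): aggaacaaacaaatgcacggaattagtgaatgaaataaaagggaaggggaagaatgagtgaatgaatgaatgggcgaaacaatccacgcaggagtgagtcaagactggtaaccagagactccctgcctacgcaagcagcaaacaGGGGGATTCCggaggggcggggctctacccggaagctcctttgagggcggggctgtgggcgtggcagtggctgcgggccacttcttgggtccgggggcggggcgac
Tnip3 (chr6:65590148-65590397, plus strand): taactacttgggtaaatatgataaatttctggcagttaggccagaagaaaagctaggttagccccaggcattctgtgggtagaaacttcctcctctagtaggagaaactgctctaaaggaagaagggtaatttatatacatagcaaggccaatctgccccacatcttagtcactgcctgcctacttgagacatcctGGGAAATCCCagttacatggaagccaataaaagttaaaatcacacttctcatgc
The capitals lie 97 to 87 bases upstream of the start in Cxcl2, where overlapping matches are joined, 29 to 20 in Nfkbia, 106 to 97 in Nfkbie and 54 to 45 in Tnip3, counted from 1 at the base just before the start. The window of Acod1 holds 0 matches. The other 4 printed windows each hold a match, which most higher genes do not: 18 of 66 with a window had one (27.3%). Of other genes with large differences, Tlr2 has a match. The windows of Gpr84, Clec4e, Tnf, Olr1, Marcksl1, Slc7a11, Icam1, Gsap and Tarm1 hold 0. A match is a stretch of letters and was not tested for binding, and a window without one says only that these letters are not in it.

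The kB consensus was found in 1281 of all 32851 windows (3.90%) and in 467 of the 10277 windows of genes past the floor (4.54%). It was found in 21 of the 85 windows (24.7%) of the 66 genes at least 2-fold higher that had a window, and in 12 of the 33 windows (36.4%) of the NF-kB list. These sets share genes with a match, among them Nfkb2, Nfkbia, Nfkbie, Tnip1 and Tnip3. Counted by gene, 18 of the 66 higher genes had a match (27.3%), beside 438 of 8077 genes past the floor (5.42%). Both strands were searched, a window with overlapping matches counts once, and a gene with several starts has several windows. Read from the motif side, 18 of 438 genes past the floor with a match were at least 2-fold higher (4.11%), against 48 of 7639 without one (0.628%). The median log2 difference was 0.00 in both sets, so most genes with a match lay where genes without one did. The AP-1 motif TGANTCA was in 6.75% of all windows and in 4.55% of those of genes past the floor. It was in 7 of the 85 windows of higher genes (8.24%) and in 6 of the 33 of the NF-kB list (18.2%). The interferon-stimulated response element, searched as TTTCNNTTTC, was in 2.98% of all windows and 2.57% of those of genes past the floor. It was in 3 of the 85 windows of higher genes (3.53%) and in 0 of the NF-kB list.

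**Figure D4:**
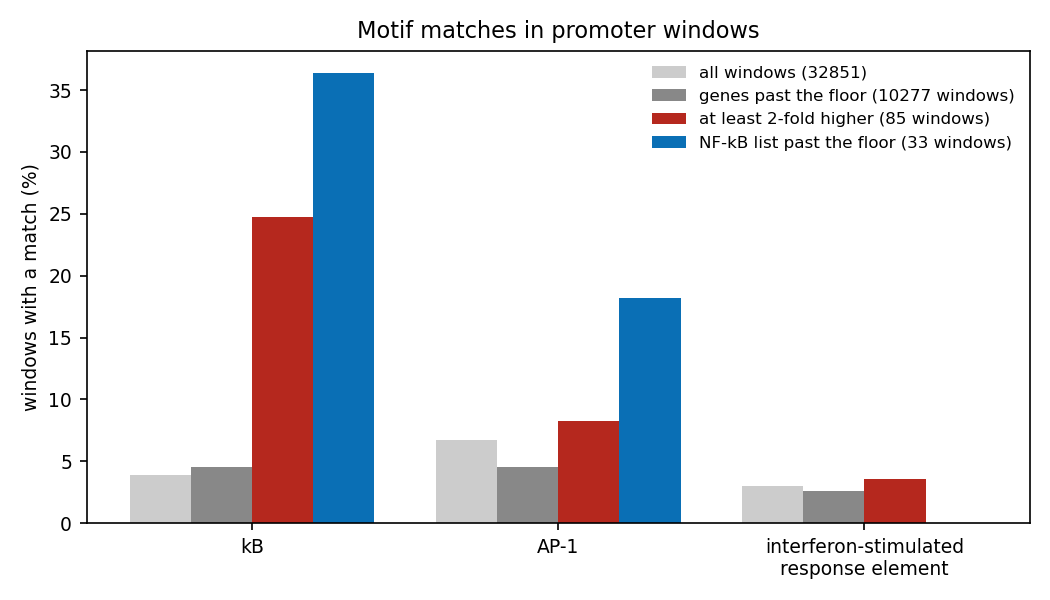
Share of promoter windows with a match (vertical axis, %) to each of 3 motifs, in all windows, those of genes past the floor, those of genes at least 2-fold higher with intralipid plus ANGPTL4 than with PBS, and those of the NF-kB list. The kB bars stand at 3.90%, 4.54%, 24.7% and 36.4%, and the AP-1 bars of the higher genes and the NF-kB list at 8.24% and 18.2%.

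Secreted signals were next. Of 26 chemokines, 16 passed the floor, of which 5 were at least 2-fold higher, 0 were lower and 14 lay above 0. Their median log2 difference was 0.51, and 0.12 over all 26. Of all genes, 0.843% were at least 2-fold higher and 35.5% lay above 0. Cxcl2, Cxcl3 and Ccl7 were below the floor with PBS and passed it, of the arrays compared, only with intralipid plus ANGPTL4. Their place above 0 in these counts therefore follows from the floor. The members at least 2-fold higher that were above the floor on both arrays were Ccl9, Ccl5 and Cxcl16. Cxcl2, a neutrophil attractant, had a log2 level of 4.70 with PBS, 10.71 with lipid alone and 8.29 with intralipid plus ANGPTL4. It was 12.1-fold above PBS, or 9.80-fold above the floor, since the PBS level lay below it, and the lipid array was the highest. Ccl5, an attractant of T cells and monocytes, was 2.81-fold higher, at 6.58, 6.75 and 8.07, and Ccl9 was 2.87-fold higher, at 8.71, 9.72 and 10.23. In these genes, unlike Cxcl2, the array with ANGPTL4 was the highest. Cxcl16, a chemokine and scavenger receptor, was 2.06-fold higher. Cxcl3 was below the floor with PBS and with lipid alone, and while it counts as 2.22-fold higher, it was 1.35-fold above the floor. Cxcl1 was 1.86-fold higher, at 6.27, 9.01 and 7.16.

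Of 12 inflammatory cytokine genes past the floor, 2 were at least 2-fold higher, beside 0.843% of all genes. The list median was 0.21, and 0.06 over all 24 measured members. Tnf, the gene of tumour necrosis factor, stood at 7.53 with PBS, 8.61 with lipid alone and 10.52 with intralipid plus ANGPTL4, 7.99-fold above PBS. Il1b, the interleukin-1 beta gene, stood at 4.11, 4.38 and 5.21, below the floor on the PBS and lipid arrays. It counts as 2.14-fold higher, but was 1.16-fold above the floor. Il1a was 1.69-fold higher, at 6.73, 9.61 and 7.48. Inhba, the gene of an activin subunit, was high with lipid alone and near PBS with intralipid plus ANGPTL4, at 5.53, 9.77 and 5.77.

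Of 11 chemokine and chemoattractant receptors past the floor, 0 were at least 2-fold apart, near the share over all genes (0.843% higher, 0.0402% lower). At least 1.5-fold higher were 3, beside 2.37% of all genes. Ccrl2, an atypical receptor that binds chemerin, was 1.91-fold higher, Cmklr1, the signalling chemerin receptor, 1.90-fold and Cx3cr1, the fractalkine receptor, 1.84-fold. Cxcr3 was 1.52-fold lower. The levels of Cmklr1 were 7.81 with PBS, 6.58 with lipid alone and 8.73 with intralipid plus ANGPTL4, and those of Ccrl2 were 8.81, 11.28 and 9.74, so the lipid array lay on opposite sides of PBS in these genes.

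Several receptors that sense microbial products were higher. Of 26 pattern recognition genes past the floor, 4 were at least 2-fold higher and 0 lower, beside 0.843% and 0.0402% of all genes. Their median log2 difference was 0.04, with 15 above 0 and 6 below. After median centring or quantile normalization, 13 lay above 0 and 13 below. Cd180 was 1.25-fold and Tlr13 and Tlr4 were each 1.19-fold lower, and Tlr3 and Tlr9 were equal on both arrays. Tlr2, which recognises lipopeptides, stood at 8.64, 8.93 and 10.81 and was 4.51-fold above PBS, and its partner Tlr1 stood at 7.80, 5.61 and 8.93 and was 2.19-fold above PBS. Nlrp3, an inflammasome sensor, was 3.22-fold higher, at 5.19, 7.46 and 6.88. Cd14, a co-receptor of Toll-like receptors, was 2.40-fold higher, at 9.07, 11.17 and 10.34, with its peak on the lipid array. Irak3, an inhibitory kinase of the pathway, was 1.67-fold higher. Of 13 C-type lectin genes past the floor, Clec4e and Clec5a were at least 2-fold higher. Clec5a was 2.83-fold above PBS, at 8.52, 7.17 and 10.02, and its lipid array was the lowest. The lectin median was 0.29, and 0.00 over all 22 measured members.

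Of 22 enzymes and effectors of activated macrophages past the floor, 8 were at least 2-fold higher (36.4%) and 0 lower, beside 0.843% and 0.0402% of all genes. This was the highest share of the gene lists, close to the 10 of 28 NF-kB genes (35.7%). The lists were drawn up with results of these data known, so their order is a description. Sod2, the mitochondrial superoxide dismutase, was 3.47-fold higher, at 9.27, 9.11 and 11.07. Hp, the haptoglobin gene, was 2.71-fold higher, at 7.14, 6.54 and 8.58, and Slc7a2, a transporter of arginine, was 2.38-fold higher, at 8.06, 8.06 and 9.32. In Sod2, Hp and Slc7a2 the lipid array was no higher than PBS. Among prostaglandin genes the order varied. Ptgs2, the inducible cyclooxygenase, stood at 5.72, 9.46 and 7.09, 2.60-fold above PBS, and Ptges, the prostaglandin E synthase, at 6.17, 7.46 and 7.41, 2.37-fold above PBS. Hpgds, a prostaglandin D synthase, was 1.40-fold lower than with PBS, at 10.04, 10.01 and 9.55. Among adhesion genes, Icam1, a ligand of leukocyte integrins, stood at 7.22, 6.53 and 9.19 and was 3.91-fold above PBS. It was the single one of 22 past the floor at 2-fold. The integrin gene Itgal was 1.67-fold higher. Among matrix genes, 1 of 24 was at least 2-fold higher. That gene was Tgfbi, an extracellular adhesion protein, which was 3.44-fold higher, at 9.54, 8.44 and 11.32.

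Interferon genes were higher in part. Of 20 type I interferon response genes past the floor, 2 were at least 2-fold higher and 0 lower, with a median of 0.20. Over all genes 0.843% were higher and 0.0402% lower. Ifit1, an RNA-binding antiviral protein, went from 4.46 with PBS, below the floor, to 5.90, and counts as 2.72-fold higher, but was 1.87-fold above the floor. Xaf1 and Cmpk2 were also below the floor with PBS, and were 1.12-fold and 1.03-fold above it with intralipid plus ANGPTL4. Ifit1, Xaf1 and Cmpk2 passed the floor on the array with ANGPTL4 only, so their place above 0 in these counts follows from the floor. Irf1, an interferon regulatory factor and NF-kB target, was 2.01-fold higher, and a second probe set of it read 4.27 on all arrays. Of 11 genes of guanylate-binding proteins and the interferon gamma response, 0 were at least 2-fold apart, with Gbp3 1.56-fold higher. Of 16 genes of antigen presentation and co-stimulation, 0 were, with the co-stimulatory receptor Cd40 1.71-fold higher.

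The lipid genes, which the treatment addresses most directly, mostly lay near PBS. Lpl, the lipoprotein lipase gene, had a log2 level of 11.98 with PBS, 11.72 with lipid alone and 12.03 with intralipid plus ANGPTL4, 1.03-fold above PBS. Cd36, the fatty acid translocase, was 1.05-fold above PBS, at 12.56, 12.65 and 12.63. Both differences lie within the robust SD over genes. Of the 17 genes of the lipoprotein lipase axis and fatty acid uptake past the floor, 0 were at least 2-fold apart. Over all genes 0.843% were at least 2-fold higher and 0.0402% lower, and 0 in a list this short is near that. Sdc4, a heparan sulfate proteoglycan of the cell surface, was 1.88-fold higher, and Fabp4, the macrophage and adipocyte fatty acid-binding protein, 1.56-fold lower.

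Hilpda, whose protein sits on lipid droplets and blocks adipose triglyceride lipase, was the single one of 15 lipid droplet genes at least 2-fold higher. Its log2 level was 7.65 with PBS, 11.80 with lipid alone and 8.79 with intralipid plus ANGPTL4, 2.21-fold above PBS. Plin2, the main droplet coat protein of macrophages, was 1.33-fold higher, at 12.25, 12.98 and 12.66. For both, the array with ANGPTL4 lay between PBS and lipid alone. Among PPAR targets and fatty acid oxidation genes, 0 of 20 were 2-fold apart, near the share over all genes (0.843% higher, 0.0402% lower). Cpt1a, which admits fatty acids to mitochondria, was 1.54-fold higher, at 9.66, 9.76 and 10.28, and Pparg, the nuclear receptor itself, was 1.71-fold lower, at 8.74, 8.74 and 7.96. Pdk4, a PPAR target that restrains pyruvate oxidation, was below the floor on every array.

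Sterol and fatty acid synthesis genes differed little from PBS, although several were low with lipid alone. The 20 cholesterol synthesis genes lay between -0.24 and 0.26 on the log2 scale, with 0 at 2-fold and a median of 0.00. Hmgcs1, the enzyme that makes HMG-CoA, showed this, at 10.02 with PBS, 7.29 with lipid alone and 9.78 with intralipid plus ANGPTL4. Of 16 fatty acid synthesis genes, 10 lay below 0 and 2 above, beside 24.5% and 35.5% of all genes, with a median of -0.07. Scd2, a stearoyl-CoA desaturase, was 1.41-fold lower than with PBS, at 8.82, 7.46 and 8.33. Of 12 LXR target and cholesterol efflux genes, 0 were 2-fold apart, beside 0.843% higher and 0.0402% lower over all genes. Nr1h3, the gene of LXR-alpha, came closest, at 1.94-fold higher, with 8.35, 8.81 and 9.31.

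Most stress genes also lay near PBS. Slc7a11 was the single ATF4 and CHOP target of 26 past the floor at 2-fold, and the list's median was 0.00. Cebpb, a transcription factor of the list, was 1.82-fold higher, at 8.57, 10.39 and 9.43. Of 24 NRF2 target and glutathione genes, 19 lay above 0, beside 35.5% of all genes, but 1 was at least 2-fold higher, again Slc7a11. Gclm, the regulatory subunit of the first enzyme of glutathione synthesis, was 1.63-fold higher, Txnrd1, a thioredoxin reductase, 1.60-fold and Gsr, glutathione reductase, 1.48-fold. The NRF2 median was 0.11. Of 25 immediate early genes, 13 lay above 0 and 11 below, with a median of 0.01. At least 1.5-fold higher were 5, beside 2.37% of all genes, and 1 of them reached 2-fold. Rgs2, a regulator of G protein signalling, was 1.51-fold lower. Dusp4, a phosphatase of MAP kinases, was 2.64-fold higher, at 6.70, 9.07 and 8.10, and Maff, Fos and Junb, transcription factor genes of the AP-1 and Maf families, were 1.96-fold, 1.79-fold and 1.72-fold higher. In all 4 the lipid array was the highest.

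The 23 lysosome and phagocytosis genes, 24 endoplasmic reticulum chaperones, 22 glycolysis and hypoxia genes, 19 cell cycle genes, 19 cytosolic ribosomal protein genes and 12 alternative activation genes past the floor had a median of 0.00 each and 0 members 2-fold apart. Both are near the values over all genes, a median of 0.00 with 0.843% higher and 0.0402% lower. In the first of these lists, Axl, a receptor for apoptotic cells, was 1.50-fold higher and its ligand gene Gas6 1.40-fold lower. In the last, Arg1, which encodes arginase 1, was 1.63-fold higher, at 7.93, 8.99 and 8.64. Across all 31 gene lists, 7.37% of 556 distinct members past the floor were at least 2-fold higher, against 0.457% of unlisted genes. The lists were drawn up with results of these data known, so this contrast is a description of the lists.

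**Figure D5:**
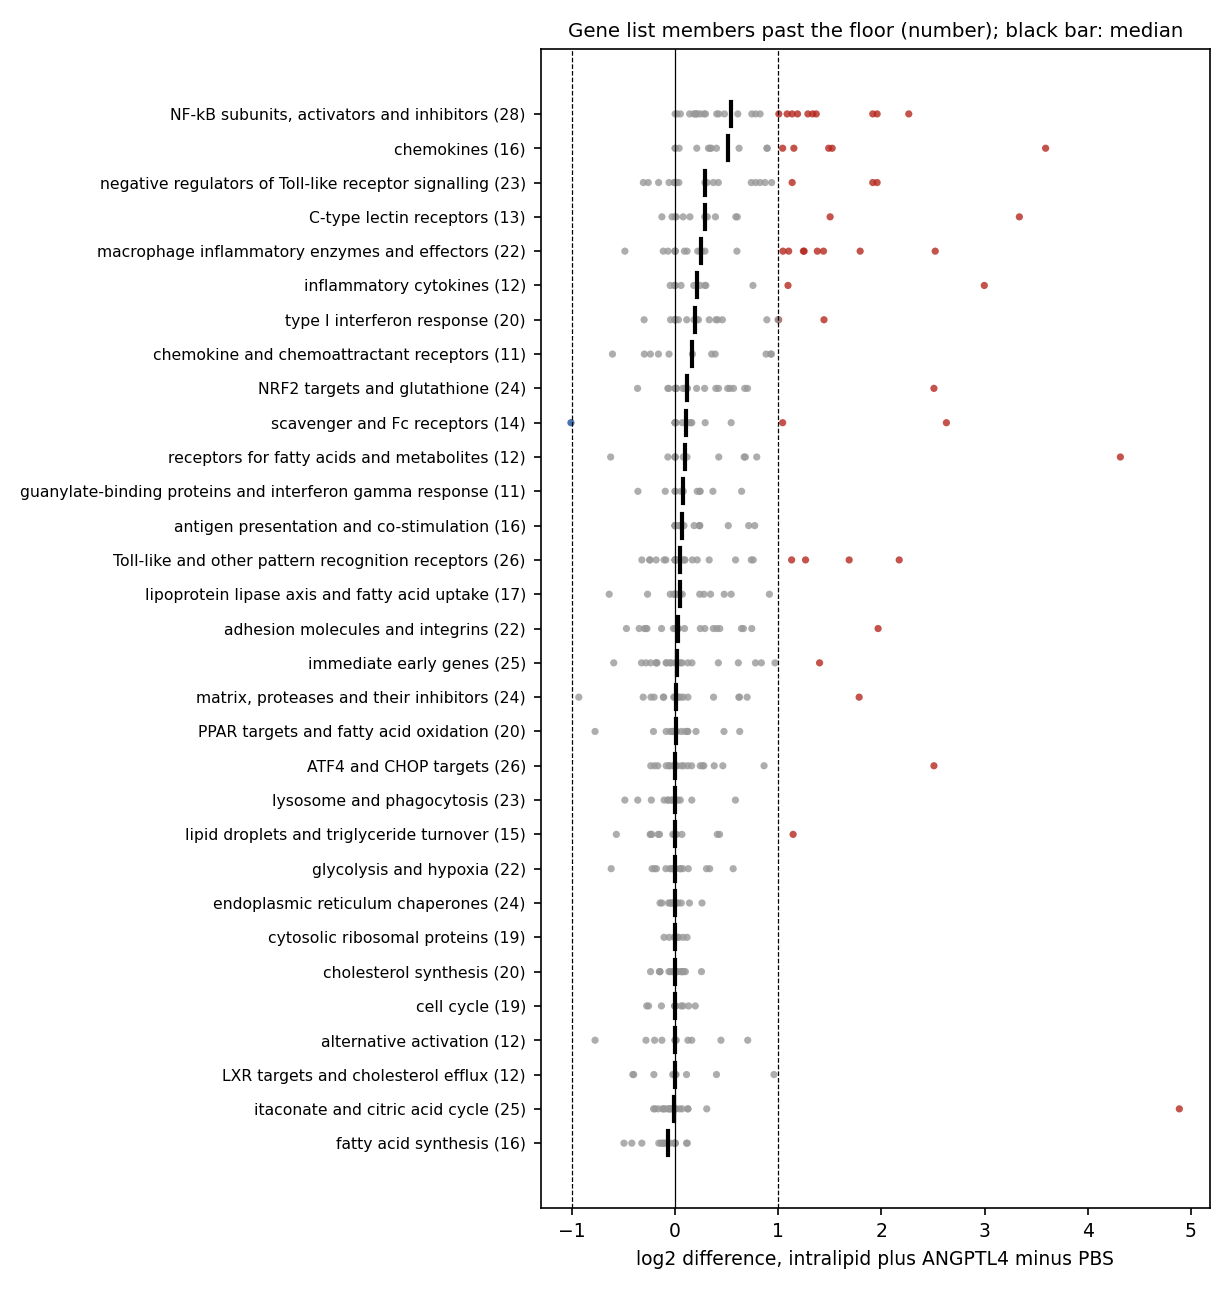
Log2 difference from PBS (horizontal axis) of every member past the floor of 31 gene lists, ordered by their median (black bar), with the number of members in brackets, dashed lines at 2-fold, and genes at least 2-fold higher in red and lower in blue. The NF-kB list has the highest median, 0.54, chemokines follow with 0.51, and the lists of ribosomal proteins, cell cycle and endoplasmic reticulum chaperones are centred on 0.00.

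The 4 genes at least 2-fold lower were of different kinds. Slc46a3, a lysosomal transporter, had a log2 level of 7.70 with PBS, 6.79 with lipid alone and 6.27 with intralipid plus ANGPTL4, 2.69-fold below PBS. Pde7b, a phosphodiesterase that degrades cyclic AMP, stood at 8.17, 10.19 and 6.87, 2.45-fold below PBS. Zdhhc14, a palmitoyltransferase, was 2.10-fold lower, at 7.60, 8.52 and 6.53. For Pde7b and Zdhhc14 lipid alone lay above PBS and the array with ANGPTL4 below it. Fcgr1, the high-affinity receptor for immunoglobulin G and 1 of the macrophage markers, was 2.01-fold lower, at 9.54, 9.07 and 8.53. Among the scavenger receptors of the same list, Olr1 and Cxcl16 were at least 2-fold higher and Msr1 was 1.46-fold higher. Of the other Fc receptor genes, Fcgr2b was 1.22-fold and Fcer1g 1.10-fold higher, and Fcgr3 and Fcgr4 were equal on both arrays. Just short of 2-fold were Thbs1, a matrix glycoprotein, 1.91-fold lower, at 10.88, 12.97 and 9.95, and Dio2, a thyroid hormone deiodinase, 1.89-fold lower. The next 9 genes in this order, Fgd4, Eps8, Socs6, St3gal5, Themis2, Tmem154, Rgs18, Hgf and Tcp11l2, were between 1.83-fold and 1.73-fold lower.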

How the data were processed

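The authors deposited 1 log2 expression value per probe set and array, made with RMA per the submitters' processing notes. For its version, the chip definition and the genome build, the sources used here say nothing. The log2 scale was read from the range of the deposited values. Per the labels' protocols, 100 ng of RNA with an integrity number above 8 was labelled, and the Orlistat cultures the protocol names were not analysed here. Of 35556 probe sets, the platform annotation gave 1 symbol to 21789, several to 1621 and none to 12146. For 999 genes with several probe sets, the probe set with the largest mean of the 3 arrays stood for the gene. The identifiers of 19856 genes matched RefSeq. On all 3 arrays, 41.4% of probe sets held identical values, which narrows the spread over genes and can hide small differences.

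Values were used as deposited. Genes were counted at a log2 difference of 1 where the higher array reached the floor, and folds are differences taken back to the linear scale. The text names the 15 largest differences in each direction (predicted, non-coding, olfactory and receptor-segment symbols left out), up to 6 members of each list with the largest differences, and 9 genes whatever their values. A fold against the floor is given where a named higher gene lay below it on the PBS array. The comparison, genes and lists were chosen with earlier results of these data known. Alternatives were thresholds of 1.5-fold and 3-fold, other floors, median centring, cyclic loess and quantile normalization (limma 3.58.1 in R 4.3.3), the mean over a gene's probe sets, the mean of a list and all its measured members. Counting was tested on simulated data. Python 3.11.15, numpy 2.4.6, pandas 2.3.3 and matplotlib 3.10.9 were used.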

Additional observations from a re-analysis of the deposited data

Results flagged for a closer look

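Some probe sets outside the gene table also differed between the arrays. Of 767 probe sets with several gene symbols past the floor, 0.391% were at least 2-fold higher with intralipid plus ANGPTL4 than with PBS. These were 3 probe sets, a share below the 0.843% of all genes, and 0 were lower. One of them is annotated to Gbp2 and Gbp2b, neighbouring guanylate-binding protein genes, and its log2 level was 6.53 with PBS and 7.74 with intralipid plus ANGPTL4, 2.31-fold higher. The others are annotated to Ass1, the argininosuccinate synthase of arginine synthesis, and to the predicted gene Gm5424, and were 2.24-fold and 2.23-fold higher. Such probe sets cannot be assigned to 1 gene, so neither Gbp2 nor Ass1 was counted.

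Of 4072 probe sets without a symbol past the floor, 130 were higher (3.19%) and 37 lower by at least 2-fold. Of these, 111 of the higher and all 37 lower ones carry identifiers below the lowest identifier that has a symbol, as do 2482 of the 4072. Among the remaining 1590, 19 were higher and 0 lower. What these probe sets measure is not given in the tables used here.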

How the results depend on the processing

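No paired analysis was possible because each group had 1 array. With 1 pooled array a side, no setting measures the spread between cultures. The counts moved with the fold threshold, as its construction requires: 236 higher and 53 lower at 1.5-fold, 25 and 0 at 3-fold. Under no floor, a floor at the 75th percentile, median centring, cyclic loess, quantile normalization and the mean over probe sets, the higher genes numbered 64 to 90 and the lower ones 4. These scalings moved the median of all genes by at most 0.04 on the log2 scale. Among named genes and list medians at least the robust SD of 0.10 in size, 0 changed sign. Below that size, Rpl5, Rpl7 and the medians of 5 lists (ATF4, PPAR, immediate early, matrix and adhesion genes, all at most 0.03) changed sign under at least 1 of median centring, cyclic loess and quantile normalization. Under these scalings 26 to 28 of the 28 NF-kB genes and 16 to 19 of the 24 NRF2 genes lay above 0. Taking the mean over a gene's probe sets moved 6 named genes, among them Irf1 to 0.50, which takes it below 2-fold. Describing lists by their mean moved 17 of them, and counting members below the floor moved 7, including chemokines, cytokines, C-type lectins and negative regulators.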

Other observations

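Of the 84 genes at least 2-fold higher, 43 were in none of the gene lists. The following were picked from these 43 after their values were seen. Genes of cell death and its control were among them: Fas, the death receptor, was 3.30-fold higher than with PBS, Cflar, an inhibitor of death receptor signalling, 2.48-fold, and Casp4, the caspase of the non-canonical inflammasome, 2.19-fold. Cflar had probe sets that did not all reach 2-fold. Mefv, which encodes the inflammasome protein pyrin, was below the floor with PBS and 2.56-fold above the floor with intralipid plus ANGPTL4. Pstpip2, an adaptor mutated in a mouse model of autoinflammatory bone disease, was 2.17-fold higher. Malt1, a protease and scaffold upstream of NF-kB, was 2.21-fold higher, and Zc3h12c, an RNase of the Zc3h12a family, 3.33-fold, with every probe set at least 2-fold higher.

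Cell surface and lipid genes were also present. Pilra, an inhibitory receptor of myeloid cells, was 2.48-fold higher. Siglece, another, was below the floor with PBS and 1.94-fold above the floor with intralipid plus ANGPTL4. Met, the receptor of hepatocyte growth factor, was 2.69-fold higher, while Hgf, the gene of its ligand, was 1.74-fold lower. Cav1, the caveolin of caveolae, was 2.83-fold higher, Osbpl3, an oxysterol-binding protein relative, 3.03-fold, Lpcat2, an enzyme that makes platelet-activating factor, 2.11-fold and Cers6, a ceramide synthase, 2.07-fold.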
